A study of Mus musculus with 208 samples.

Results

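The Mir148 and Mir152 family comprises 3 microRNA genes, Mir148a, Mir148b and Mir152, and they were taken by name from a small RNA-sequencing table of mouse striatum with 1626 features, of which 477 passed the filter on low counts. All 3 members passed that filter. They were chosen by their measured association with Htt CAG length at 6 and 10 months (6m, 10m), including the comparison with own littermates, so values at those ages are given as a description, without a test, and tests are given only for what did not enter the choice. The mice were heterozygous (HET) for a wild-type (WT) Htt allele and a knock-in allele that carries a human HTT exon 1 with 20, 80, 92, 111, 140 or 175 CAG repeats (named Q20 to Q175 after that length). The labels give the strain as C57BL/6 and the methods a cross of HET males to C57BL/6J females, and 208 libraries from 26 groups of 8 were measured, with females and males in every group. At 2, 6 and 10 months each line gave HET mice and the Q20 line also gave WT littermates. At 6 months WT mice of each of the 6 lines were measured. Their labels state that they were housed with HET mice of the line. They are called WT littermates here, though outside the Q20 line shared litters are not stated. The controls at each age were the Q20 and WT mice of the Q20 line, 16 libraries. Each CAG length is 1 line, and the Q175 line arose from the Q140 line by a further expansion, so line and CAG length cannot be told apart, and WT littermates of the expanded lines were measured only at 6 months.

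MicroRNAs are short RNAs cut from a hairpin precursor, and 1 arm of the hairpin, loaded into an Argonaute protein, pairs through its seed (bases 2 to 8 from its 5′ end) with target messenger RNAs and lowers their output. Genes with the same seed form a family and share most of their predicted targets, while each gene has its own promoter or host gene and so its own level. The striatum is the brain region most affected in Huntington's disease, which is caused by expansion of the CAG repeat in HTT.

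The mature sequences, from RefSeq on GRCm38.p6, show what the members share and where they part. The 3p arms are given first because they carry the shared seed, which is in capitals:
Mir148a, miR-148a-3p: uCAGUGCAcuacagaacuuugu
Mir148b, miR-148b-3p: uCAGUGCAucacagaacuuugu
Mir152, miR-152-3p: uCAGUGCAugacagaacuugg
The 5p arms follow, with their own seeds in capitals:
Mir148a, miR-148a-5p: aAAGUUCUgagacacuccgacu
Mir148b, miR-148b-5p: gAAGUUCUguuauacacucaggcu
Mir152, miR-152-5p: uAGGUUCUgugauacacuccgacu
The seed CAGUGCA stood in exactly 3 of the 1679 mature mouse microRNAs of that table, the 3p arms of the 3 members, and its complementary site in a target reads UGCACUG. Outside the seed the 3p arms differed at few bases. Counted from 1 at the 5′ end, miR-148a-3p and miR-148b-3p differed at 2 bases (C9U and U10C), and miR-148a-3p and miR-152-3p at 3 (C9U, U10G and U20G), with miR-152-3p ending 1 base earlier. miR-148b-3p and miR-152-3p differed at 2 (C10G and U20G). The 5p arms of Mir148a and Mir148b shared the seed AAGUUCU, which no other microRNA of the table had, whereas that of Mir152 was AGGUUCU.

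The genes lie on 3 chromosomes of GRCm38. Mir148a (ENSMUST00000083571) is at chr6:51269812-51269910 on the minus strand and is intergenic, with the nearest protein-coding gene, Nfe2l3, 162760 bases away. Mir148b (ENSMUST00000083626) is at chr15:103285125-103285221 on the plus strand in an intron of Copz1, and Mir152 (ENSMUST00000083581) is at chr11:96850393-96850465 on the plus strand in an intron of Copz2, both on the strand of the host. Copz1 and Copz2 encode related zeta subunits of the COPI vesicle coat. The table has 1 value per gene, so the 5p and 3p arms are summed in every value below.

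The members differed widely in abundance. Their median FPKM, a level per length of the gene, was 29848 for Mir148a (rank 55 of the 477 tested), 9120 for Mir148b (rank 98) and 507 for Mir152 (rank 234). Mir148a had 5789 to 24317 reads per library, Mir148b 2610 to 7409 and Mir152 111 to 303. Counting error at the median count was therefore 0.847%, 1.54% and 7.45%, while the coefficient of variation within groups had a median of 11.4%, 6.91% and 8.41% over the 26 groups. The spread of Mir148a and Mir148b within a group thus exceeded counting error several fold, and most of the spread of Mir152 was of the size of its counting error. Levels below are CPM, read counts relative to the library total, after trimmed mean of M-values (TMM) scaling, and differences are on a log2 scale from edgeR.

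Library totals were 3780868 to 7965446 counts at 2 months (2m), 3354431 to 7954969 at 6m and 2755347 to 4893051 at 10m. 4 libraries stood apart by the connectivity measure of the study (Z.k below -5) and were left out, namely 1 Q80 library at 2m, 1 Q80 library and 1 WT littermate of the Q80 line at 6m, and 1 WT library at 10m. With all libraries kept, the Mir148a slopes were -0.06, -0.29 and -0.58 at 2m, 6m and 10m. In 2 libraries the cage code went with the other sex than the label, and the labels were used. At 2m and 10m most mice of a line and sex had the same cage code, so cage and line cannot be told apart. The tests treat mice as independent.

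Mir148a, the most abundant member, was also the one that differed most between lines. At 2m the 16 control libraries had 2558 to 3388 CPM (median 2891) and the 8 Q175 libraries 2187 to 3013 (median 2832), so the groups overlapped over most of their range. At 6m the controls had 3151 to 4493 CPM (median 3517) and Q175 had 2270 to 2518 (median 2437). At 10m the 15 controls kept had 2214 to 3356 CPM (median 2872) and Q175 had 1217 to 1793 (median 1418). At both later ages all 8 Q175 libraries lay below the lowest control, whereas at 2m only 2 did. In this comparison 36.5% of all tested microRNAs were called at a false discovery rate (FDR) under 0.05 at 6m and 20.8% at 10m, and since these values chose the family nothing is read from them. The share of microRNAs that separated without overlap was not counted.

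The intermediate lines filled the range between. At 6m Q140 had 2266 to 3296 CPM of Mir148a (median 2909), with 6 of 8 libraries below the lowest control, and at 10m it had 1444 to 1914 (median 1580), with 8 of 8 below; 30% and 17% of tested microRNAs were called in those comparisons. Q111 had 2709 to 3540 CPM (median 3353) at 6m and 1766 to 2588 (median 2188) at 10m, when 4 of 8 were below the lowest control and 15.5% of tested microRNAs were called. Q92 did not stand between its neighbours at 10m. Its 8 libraries spread from 2044 to 3555 CPM (median 2862), the widest coefficient of variation of any group for this gene (21.5%), and its mean of 2844 ± 610 CPM (SD, n = 8) was next to that of the controls, 2821 ± 329 CPM (SD, n = 15). Q80 had 1647 to 3198 CPM (median 2533) at 10m, and 1 library of 8 fell below the controls.

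As differences from the controls of the same age, Mir148a at 6m was at -0.12 (SE 0.07) for Q80, -0.20 (SE 0.06) for Q92, -0.14 (SE 0.07) for Q111, -0.35 (SE 0.07) for Q140 and -0.50 (SE 0.06) for Q175, on the log2 scale. In the same order, the differences at 10m were -0.15 (SE 0.08), 0.02 (SE 0.08), -0.38 (SE 0.08), -0.78 (SE 0.09) and -0.89 (SE 0.08). The last of these is a level of -45.9% relative to the controls, against -29.4% at 6m. The order of the lines followed CAG length from Q111 upward at both ages, while Q80, Q92 and Q111 were within 2 SE of each other at 6m. Q140 and Q175 at 10m differed by about 1 SE. In a whole-striatum sample, fewer cells of a type and less RNA per cell cannot be told apart.

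**Figure D1:**
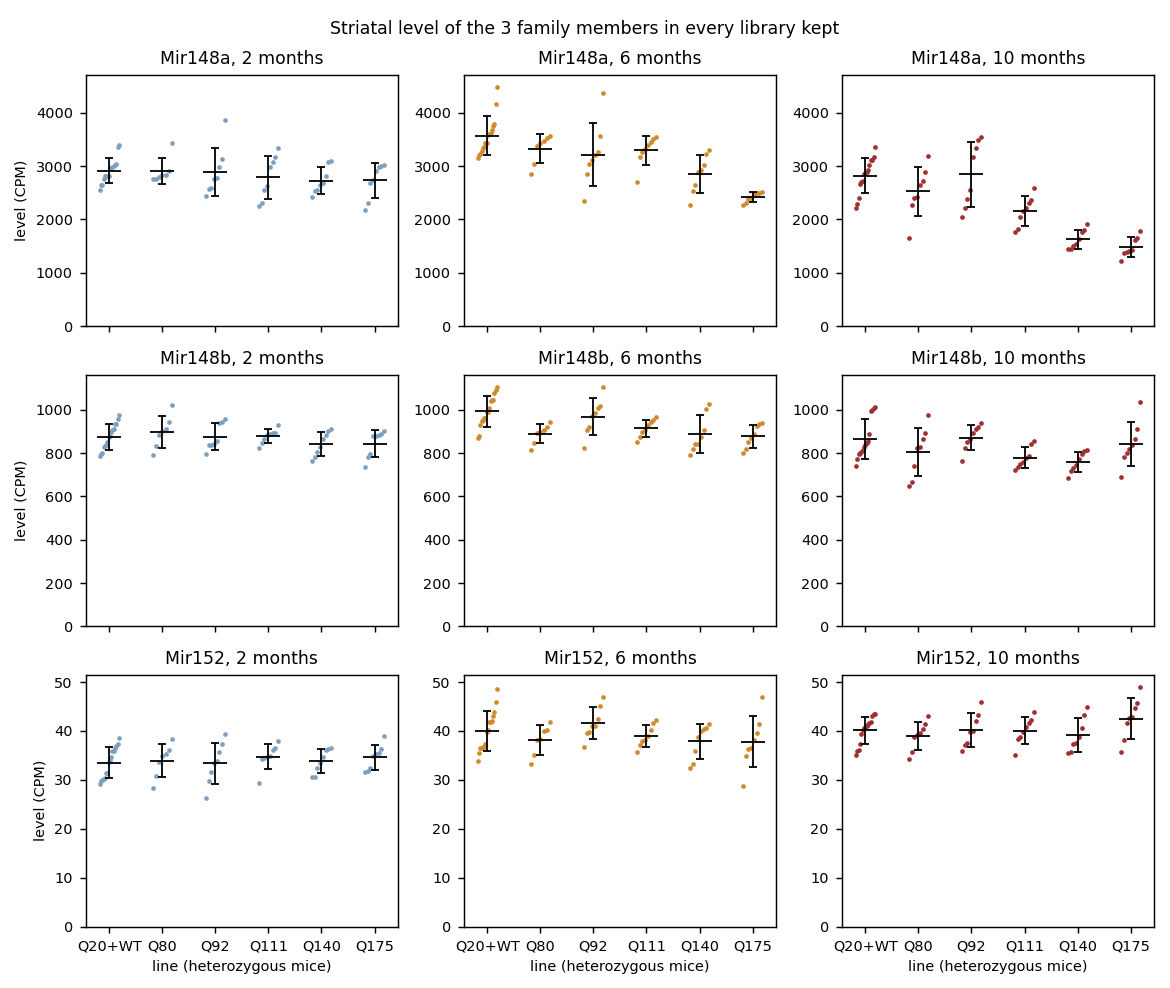
Level in CPM (vertical axis, from 0) of Mir148a, Mir148b and Mir152 in every library kept at 2, 6 and 10 months, by line on the horizontal axis, where Q20+WT are the controls. Points are libraries (7 or 8 per line and 15 or 16 controls) and bars are the mean ± SD, and Mir148a in Q140 and Q175 at 10 months lies wholly below the controls while Mir152 overlaps them in every line.

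Mir148b, the second most abundant member, was lower in expanded lines at the later ages by smaller amounts. Against the controls of the Q20 line these differences had no order by CAG length. At 6m the controls had 869 to 1106 CPM (median 991) and Q175 had 799 to 940 (median 878), with 4 of 8 below the lowest control. At 10m the controls had 740 to 1012 CPM (median 838.2) and Q175 had 691 to 1034 (median 827), with 1 of 8 below, so the groups overlapped almost entirely. The log2 differences from the controls at 6m were -0.16 (SE 0.05) for Q80, -0.08 (SE 0.04) for Q92, -0.12 (SE 0.05) for Q111, -0.17 (SE 0.05) for Q140 and -0.12 (SE 0.04) for Q175. The Q175 value at 6m ran from -0.13 to -0.041 over 13 other settings, the smallest with total count scaling. At 10m the differences of the 5 lines were -0.12, -0.02, -0.18, -0.22 and -0.06 with SEs of 0.06 to 0.07. The shortest expansion was therefore as far from the controls as the longest at 6m, and Q140 was farther than Q175 at 10m, unlike Mir148a.

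Mir152, the least abundant member, stayed near the controls in every line and age. At 6m the controls had 33.9 to 48.5 CPM (median 40.0) and Q175 had 28.8 to 46.9 (median 37.3). At 10m the controls had 35.1 to 43.5 CPM (median 40.9) and Q175 had 35.8 to 49.01 (median 42.8). No Q175 library was then below the lowest control, and 3 of 8 were above the highest. The log2 differences at 6m and 10m lay between -0.06 and 0.06 in the 5 expanded lines, each with an SE of 0.06 or 0.07.

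**Figure D2:**
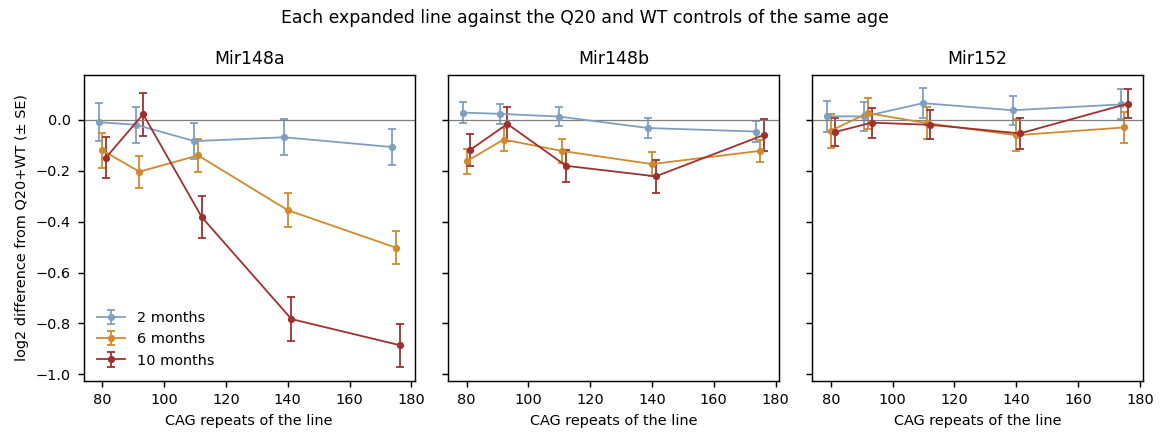
Log2 difference of each expanded line from the controls of its age (vertical axis, ± SE) against the CAG repeats of the line (horizontal axis, with ages shifted slightly sideways for legibility), for the 3 members. Mir148a reaches -0.89 in Q175 at 10 months, Mir148b stays between -0.22 and 0.03, and Mir152 stays within 0.07 of 0.

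Slopes on CAG length, in log2 units per 100 repeats with WT set at 7 repeats, summarise the same libraries. For Mir148a the slope was -0.29 (SE 0.04) at 6m and -0.58 (SE 0.07) at 10m. For Mir148b it was -0.09 (SE 0.03) and -0.08 (SE 0.04). For Mir152 it was -0.02 (SE 0.03) and 0.02 (SE 0.03), the first of which turned to 0.03 when libraries were scaled by total count. At 6m 30.2% of all tested microRNAs were called and at 10m 24.1%, and of those called at 6m 43.8% rose with TMM scaling, 54.4% with relative log expression factors and 71.7% with total count scaling. The total count scaling moved Mir148b at 6m to -0.039 and Mir148a to -0.24.

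Libraries also carry a tag in their column names, whose meaning is not given. Tags were grouped into sets within each age, some of them pooled, and slopes were recomputed within each set of at least 7 libraries. For Mir148a they were -0.28 (SE 0.05, 44 libraries) and -0.30 (SE 0.05, 11 libraries) within the sets at 6m, and -0.68 (SE 0.13, 20 libraries), -0.54 (SE 0.09, 24 libraries) and -0.20 (SE 0.18, 7 libraries) within those at 10m, where the last set held no Q92, Q140 or Q175 mouse. For Mir148b the 5 values ran from -0.14 to -0.06, and for Mir152 from -0.15 to 0.06. Because the sets were formed within each age, none spans 2 ages, although a tag such as L1 occurs at both 2m and 10m. Whether such a tag means the same at both ages is not given, so age and these sets cannot be told apart.

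With slopes at all ages in a single model, the Mir148a slope at 10m minus that at 6m was -0.29 (SE 0.07). The difference was 0.01 (SE 0.04) for Mir148b and 0.05 (SE 0.05) for Mir152. Relative to 2m, the Mir148a slope differed by -0.23 (SE 0.07) at 6m and -0.52 (SE 0.07) at 10m. In these 3 comparisons 1.68%, 12.6% and 15.5% of tested microRNAs were called, and the later slopes also entered the choice of the family. The controls themselves were not level over age, with Mir148a means of 2914 ± 232 CPM (SD, n = 16), 3573 ± 359 (SD, n = 16) and 2821 ± 329 (SD, n = 15) at 2m, 6m and 10m, in libraries of different sets.

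Against WT littermates of their own line at 6m, Mir148a was lower in the 2 longest lines. WT littermates of Q175 had 3218 to 3934 CPM (median 3678) against 2270 to 2518 (median 2437) in Q175, and WT littermates of Q140 had 3382 to 3670 (median 3471) against 2266 to 3296 (median 2909) in Q140. All 8 HET libraries of each line lay below the lowest WT littermate, where 25.6% (Q175) and 15.9% (Q140) of tested microRNAs were called. The share called is not the share without overlap, which was not counted. The log2 differences were -0.54 (SE 0.07) for Q175 and -0.26 (SE 0.07) for Q140. Those for Q111, Q92 and Q80 were -0.06, -0.10 and -0.06 (each SE 0.07), and the HET and WT ranges of those lines overlapped.

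Mir148b in the Q175 line was 799 to 940 CPM (median 878) in HET mice and 964 to 1088 (median 1007) in WT littermates, again without overlap. The log2 difference was -0.14 (SE 0.05). How many of all tested microRNAs separated without overlap was not counted, and this comparison entered the choice of the family. In the Q140 line 6 of 8 HET libraries were below the lowest WT littermate, and the difference was -0.12 (SE 0.05). In the Q80 line it was -0.07 (SE 0.05), less than the -0.16 seen against the Q20 line's controls. In the Q92 and Q111 lines it was -0.01 and -0.04 (each SE 0.05). Against own littermates the Mir148b difference thus grew with CAG length from Q92 to Q175, with Q80 outside that order. Mir152 had differences of -0.05 (SE 0.07) in Q175 and 0.05 (SE 0.07) in Q140, and 3 and 2 of 8 HET libraries lay below the lowest WT. Fitted within lines, the slope per 100 repeats was -0.21 (SE 0.03) for Mir148a, -0.07 (SE 0.02) for Mir148b and 0.02 (SE 0.03) for Mir152, with 30% of all microRNAs called.

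**Figure D3:**
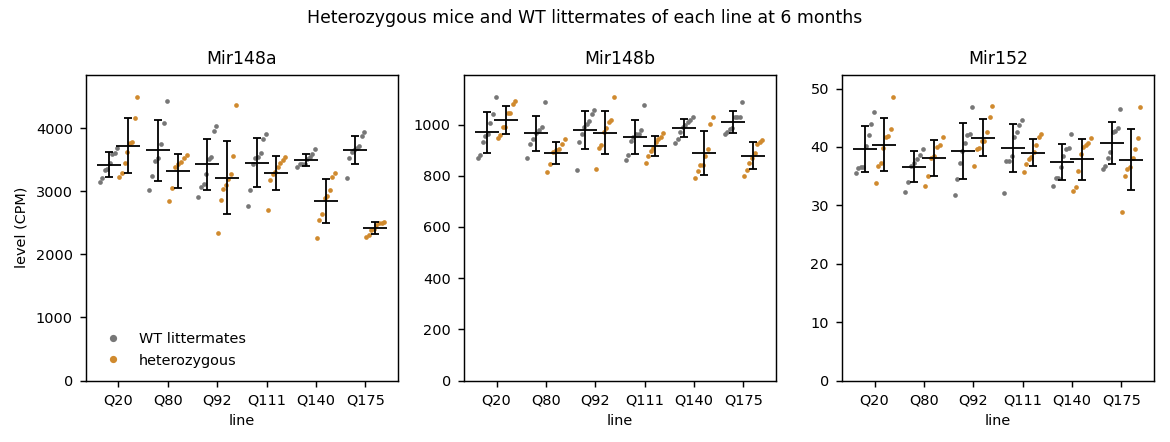
Level in CPM (vertical axis, from 0) in WT littermates (grey) and HET mice (orange) of each line at 6 months, with bars for the mean ± SD over 7 or 8 libraries. The Mir148a ranges separate in Q140 and Q175, the Mir148b ranges separate in Q175, and those of Mir152 overlap in every line.

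Because the 3 genes share a seed, their sum and makeup were also described. The family total was 3727 ± 361 CPM (SD, n = 15) in controls and 2368 ± 263 CPM (SD, n = 8) in Q175 at 10m, and its slope was -0.05 (SE 0.03), -0.23 (SE 0.03) and -0.42 (SE 0.05) per 100 repeats at 2m, 6m and 10m. Per length, from FPKM, Mir148a made up 74.9% ± 2.56 (SD, n = 15) of the family in controls and 61.7% ± 2.33 (SD, n = 8) in Q175 at 10m, and the ranges did not overlap (71.2% to 79.3% and 58.9% to 65.9%). Mir148b made up 23.6% and 35.9%, and Mir152 1.46% and 2.41%. The genes of Mir148a, Mir148b and Mir152 are 99, 97 and 73 bases long, so per length Mir152 weighs more than by reads. By CPM, Mir152 had a mean of 40.1 in the 10m controls, within the family total of 3727. Levels at 10m entered the choice of the family, so the separation of these shares is a description, and how often other families separate likewise was not counted. At 2m the share of Mir148a was 75.6% ± 1.62 (SD, n = 16) and 74.96% ± 1.36 (SD, n = 8).

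The ratio of Mir148a reads to Mir148b reads within a library needs no scaling between libraries. In controls it was 2.82 to 4.04 (median 3.34) at 2m, 2.90 to 4.11 (median 3.55) at 6m and 2.67 to 4.20 (median 3.21) at 10m. In Q175 it was 2.89 to 3.43 (median 3.30), 2.599 to 3.04 (median 2.75) and 1.56 to 2.10 (median 1.71). At 10m Q140 had 1.93 to 2.40 (median 2.14) and Q111 2.36 to 3.51 (median 2.61), so both longest lines were below every control and Q111 was not. The slope of the log2 ratio was -0.20 (SE 0.03) at 6m and -0.49 (SE 0.07) at 10m. That of Mir148b to Mir152 was -0.06 (SE 0.04) and -0.09 (SE 0.04). These ratios rest on levels that entered the choice of the family, so their separation at the later ages is a description. How many ratios of other microRNAs separate likewise was not counted.

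**Figure D4:**
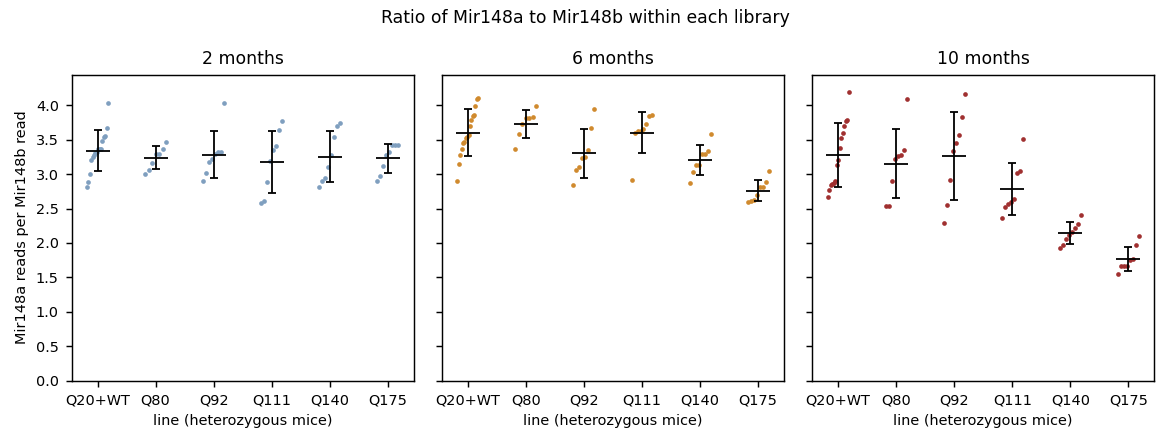
Mir148a reads per Mir148b read in each library (vertical axis, from 0) by line (horizontal axis) at 2, 6 and 10 months, with bars for the mean ± SD. The medians of controls and Q175 are 3.34 and 3.30 at 2 months and 3.21 and 1.71 at 10 months.

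Values at 2m did not enter the choice of the family, and so they were tested. No member's slope passed an FDR of 0.05 by the quasi-likelihood test of edgeR with Benjamini-Hochberg adjustment. For Mir148a it was -0.06 (SE 0.04, adjusted p = 0.752, 95% interval -0.14 to 0.01), for Mir148b -0.02 (SE 0.02, adjusted p = 0.827, -0.07 to 0.02) and for Mir152 0.04 (SE 0.03, adjusted p = 0.806, -0.02 to 0.10). In this comparison 0% of the 477 microRNAs were called by edgeR and 0 by DESeq2, and 36 had an unadjusted p under 0.05.

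Line by line at 2m, Mir148a was at -0.01 for Q80, -0.02 for Q92, -0.08 for Q111, -0.07 for Q140 and -0.11 for Q175 (each SE 0.07), and the adjusted p-values of edgeR's test were 0.624 or more. Q175 had the interval -0.25 to 0.03. The smallest adjusted p among the 5 lines was 0.842 for Mir148b and 0.635 for Mir152 by the same test. Of all tested microRNAs edgeR called 0%, 0%, 2.94%, 0% and 0.21% in these 5 comparisons, in the order of the lines. For Q80, Q92 and Q140, where edgeR called none, 33, 45 and 31 had an unadjusted p under 0.05 and DESeq2 called 0, 3 and 2. The 3 log2 ratios between members were then tested by permuting CAG lengths within sex over 100000 resamples, two-sided. The slopes and SEs given come from a fit with sex and library set, whereas the permuted statistic was adjusted for sex alone. The slope of Mir148a to Mir148b was -0.04 (SE 0.03, n = 55, permutation p = 0.336, adjusted 0.336), that of Mir148a to Mir152 was -0.10 (SE 0.05, permutation p = 0.0688, adjusted 0.103), and that of Mir148b to Mir152 was -0.07 (SE 0.03, permutation p = 0.0560, adjusted 0.103). Permuted within sex and library set, the last pair had adjusted p-values of 0.0701 each, so none of the 3 passed 0.05.

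Sex gave no called difference for any member. Mir148a was lower in males at each age, with log2 differences of -0.07 (SE 0.04), -0.10 (SE 0.04) and -0.12 (SE 0.07) at 2m, 6m and 10m and adjusted p-values of 0.488, 0.524 and 0.808 by edgeR. Mir152 at 2m had -0.10 (SE 0.03), and its adjusted p by edgeR was 0.272. In these comparisons 0.629%, 0.629% and 0.419% of microRNAs were called. The slope on CAG length in males minus that in females was -0.02 (SE 0.08), 0.06 (SE 0.07) and -0.18 (SE 0.13) for Mir148a. At 2m the adjusted p by edgeR was 0.999 for each member. The values at 6m and 10m split slopes that entered the choice of the family, so they are a description. For these 3 interactions edgeR and DESeq2 each called 0%, or 0 microRNAs, and 20, 27 and 48 had an unadjusted p under 0.05.

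Q20 mice and their WT littermates were pooled as controls, and so they were compared. Mir148a was at 0.11 (SE 0.08), 0.09 (SE 0.07) and 0.18 (SE 0.09) in Q20 relative to WT at 2m, 6m and 10m. The 2m difference was tested and had an adjusted p of 1 by edgeR (95% interval -0.04 to 0.26), and the later values are a description. No microRNA was called by edgeR in these comparisons (0% at each age, with 27, 19 and 31 at an unadjusted p under 0.05), and DESeq2 called 0, 5 and 2. Among the 6 groups of WT littermates at 6m, 27.3% of microRNAs differed between lines. The adjusted p-values by edgeR were 0.614 for Mir148a, 0.604 for Mir148b and 0.249 for Mir152. These WT libraries also entered the comparison with own littermates that chose the family, so nothing is read from these values.

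Within groups, Mir148a and Mir148b varied together. Over residuals of log2 CPM after group, sex and library set, Pearson's r was 0.53 at 2m (n = 55, permutation p = 7e-05, adjusted 0.000315), 0.66 at 6m (n = 94, permutation p = 1e-05, the smallest that 100000 resamples can give, adjusted 9e-05) and 0.34 at 10m (n = 55, permutation p = 0.0112, adjusted 0.0251). Spearman's rho was 0.48, 0.58 and 0.33, with adjusted permutation p-values of 0.00135, 9e-05 and 0.0242. Without the 2 libraries farthest from the median of Mir148a, r was 0.41, 0.61 and 0.36. Within library sets it was 0.72 (n = 26), 0.34 (n = 10) and 0.01 (n = 11) at 2m, 0.69 (n = 76) and 0.53 (n = 18) at 6m, and 0.39 (n = 24), 0.32 (n = 20) and -0.02 (n = 7) at 10m, so that at 2m it rested mainly on the largest set. Both genes share a library's scaling factor, and its part in the relation was not tested.

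The relations of Mir152 within groups were mixed, and differences between these correlations were not tested. Its r with Mir148a was -0.28, -0.10 and 0.24 at 2m, 6m and 10m (adjusted permutation p = 0.0547, 0.359 and 0.0979; rho -0.29, -0.07 and 0.18 with adjusted permutation p = 0.0475, 0.525 and 0.238), and -0.25, -0.10 and 0.16 without the 2 farthest libraries. Its r with Mir148b was 0.13, 0.24 and 0.35 (adjusted permutation p = 0.359, 0.0324 and 0.0251; rho 0.10, 0.28 and 0.34 with adjusted permutation p = 0.525, 0.0174 and 0.0242), and 0.16, 0.27 and 0.40 without the 2 farthest. Within library sets the latter ranged from -0.62 to 0.51, and Mir152 is the member with the largest counting error. In all, 9 relations were tested in this family.

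Across the 26 group means, centred within each age, Mir148a had an r of 0.62 with Mir148b and -0.05 with Mir152, and Mir148b had 0.40 with Mir152. These are descriptions over groups that share sequencing sets and controls. The microRNAs most like Mir148a by the same measure were Mir344b (r = 0.88), Mir344-2 (0.88) and Mir221 (0.88). Their slopes at 10m were -0.55 (SE 0.05), -0.34 (SE 0.05) and -0.31 (SE 0.05), against -0.58 for Mir148a. Those most like Mir148b were Mir3083 (0.75), Gm25301 (0.74) and Mir30a (0.74), and for Mir152 they were Mir494 (0.62), Mir93 (0.61) and Mir186 (0.54).

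Lists of microRNAs known to be enriched in cell types were followed in the same libraries. Of 14 neuron markers, which include Mir124a, Mir128 and Mir132 genes, 7 fell and 0 rose at 6m, and 4 fell and 1 rose at 10m, where 17% and 11.7% of all tested microRNAs fell by edgeR's test. Their median slope was -0.12 at 6m and -0.09 at 10m, and their summed level at 10m was 71110 to 88954 CPM in controls and 70570 to 80727 in Q175. Many of these neuron markers are gene copies of the same microRNA, such as Mir128-1 and Mir128-2, so they are not independent. The paper itself reports Mir132 and Mir218 as lower in striatum, so part of this list was known to fall. Of 3 oligodendrocyte and 3 vessel markers 1 each fell at 6m and none at 10m, when the vessel sum was 12552 to 16396 CPM in controls and 12593 to 15629 in Q175. Of 4 ependymal markers 1 rose and 1 fell at 6m and none changed at 10m. The 2 tested markers of red blood cells and the 2 tested of 5 listed for microglia and white blood cells were not called at any age, and the sum of the last pair was 11.3 to 19.05 CPM in controls and 11.1 to 23.2 in Q175 at 10m. At 6m the neuron sum was 79371 to 94892 CPM in controls and 70072 to 84738 in Q175. At 10m the Q175 and control ranges of each of these sums overlapped, while Mir148a was chosen for its difference. The part of these cell types in the Mir148a difference was not tested.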

How the data were processed

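Small RNA was sequenced from striatum. As the labels and the methods state, base calls came from CASAVA 1.8.2, clipped reads were aligned to mm10 with STAR, and genes were counted with HTSeq. The authors deposited expected counts per transcript, not scaled between libraries and fractional for some features, but whole in all libraries for the 3 members, and FPKM values computed from them. Counts were rounded. Transcripts were named by GENCODE M21 (1228 of 1626 matched).

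Members and lists were chosen with earlier results of these data known. The named microRNAs are the members and, for each, the 3 with the highest r over group means. Libraries with Z.k below -5 were left out (4 of 208). After edgeR's filterByExpr, 477 features were tested in R 4.3.3 with edgeR 4.0.16 (TMM, robust quasi-likelihood), with sex and library set as covariates and Benjamini-Hochberg adjustment (threshold 0.05). Intervals are 95%. DESeq2 1.42.0, limma 3.58.1 and other settings were alternatives. The slope fit was tested on simulated data. Per the methods, a litter gave at most 1 mouse of each sex and genotype.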

Additional observations from a re-analysis of the deposited data

Results flagged for a closer look

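Of 78 group and member combinations, 3 had a library far from the others, where chance alone gives about 3.9 at 1 in 20. In Q80 at 2m, replicate F2 had 3440 CPM of Mir148a, above the next library at 2908, a gap of 0.771 of the group's range. In Q111 at 6m, replicate M1 had 2709 CPM of Mir148a, below the next at 3179, a gap of 0.566 of the range. In Q111 at 2m, replicate F2 had 29.3 CPM of Mir152, below the next at 34.2, also a gap of 0.566 of the range.

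The slope of Mir148a on CAG length differed between ages in the joint model, by -0.29 for 10m minus 6m, -0.52 for 10m minus 2m and -0.23 for 6m minus 2m, where 1.68%, 15.5% and 12.6% of tested microRNAs were called. Slopes at 6m and 10m entered the choice of the family, and age and library set cannot be told apart. Over 15 alternatives these differences ran from -0.42 to -0.09, from -0.64 to -0.22 and from -0.24 to -0.13, given without a verdict on calls.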

How the results depend on the processing

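Slopes at 6m and 10m chose the family, so their values under other settings are given without a verdict on calls. With Q140 and Q175 left out, the Mir148a slope was -0.17 (6m) and -0.24 (10m), and within the 10m set that lacks the long lines it was -0.20. With Q20 only as controls the Mir148a slope was -0.34 (6m) and -0.75 (10m), and with WT only -0.26 and -0.58. The Mir148b slope at 6m was -0.039 with total count scaling, -0.057 with WT only as controls, -0.12 with Q140 and Q175 left out and -0.078 within the smaller 6m set. That at 10m was -0.18 with Q175 left out and -0.11 with sex by replicate number as a replicate block. The causes were not tested. No slope at 2m, which was tested, was called under any alternative. The log2 ratio slope of Mir148a to Mir148b moved to -0.25 (6m) and -0.66 (10m) with Q20 only as controls, and to -0.12 and -0.33 with Q175 left out.

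Leaving out 1 Q175 or control library at a time gave -0.07 to -0.05 (2m), -0.30 to -0.28 (6m) and -0.61 to -0.56 (10m) for Mir148a, -0.04 to -0.02, -0.10 to -0.08 and -0.10 to -0.062 for Mir148b, and 0.03 to 0.05, -0.05 to -0.01 and 0.00 to 0.03 for Mir152. Against own littermates, Q175 gave -0.56 to -0.51 for Mir148a and -0.16 to -0.12 for Mir148b. Replicate numbers were not used to pair the samples. The mean r of same-numbered libraries was 0.02, 0.01 and 0.05 at 2m, 6m and 10m, against -0.007, -0.003 and -0.016 for other numbers. At 10m 59 of 156 same-numbered pairs had an r over 0.1. Whether the numbers mark a pairing was not tested. The replicate block moved the calls among all microRNAs at 6m from 144 to 137 and at 10m from 115 to 125. The calls among all microRNAs moved from 8 to between 2 and 11 for the 10m minus 6m slope, and from 0 to at most 1 for the 2m slope, 11, 5 and 2 for Q20 against WT and 1, 4 and 10 for the sex interaction at 2m, 6m and 10m. Those for sex at 2m moved from 3 to between 1 and 4. Depth limits Mir152 most, at 111 to 303 reads per library.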
